A study of Homo sapiens with 23 samples.

Results

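This comparison set MCF10A cells engineered with ErbB2, named ErbB2* in the labels, against unmodified MCF10A cells, named WT, with both lines grown in 3D culture. MCF10A is an immortalised, non-tumorigenic line of human breast epithelial cells. Samples were chosen by their titles, which placed 11 of the 23 samples of the series here, 6 replicates of ErbB2* in 3D and 5 of WT in 3D. The other 12 samples were the same lines in 2D culture, 6 of each. Total RNA of each sample was labelled with biotin and hybridised to 1 Illumina bead array. No treatment is named for either line, and no other allele or agent. The form of ErbB2, its promoter, whether ErbB2* is a clone or a pool, and the gel, medium and days of the 3D culture, are nowhere stated in the labels. There is 1 line of each kind, so the engineered gene and any other difference between the lines cannot be told apart. The labels do not say that replicates came from separate cultures, and p-values then reflect a spread that may be technical.

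One library stood apart before any comparison. The title, source and description of WT 3D replicate 5 placed it with the WT cells, while its cell line field named ErbB2*. Its scanner column had a mean intensity of 150.6, against 382.0 to 496.3 on the other 10 arrays in 3D, and a rank correlation of 0.503 with its own column in the authors' deposited normalised table, against 1.000 on the other arrays. That deposited column correlated at 0.994 to 0.995 with WT 3D replicates 1 to 4 and at 0.980 to 0.983 with the ErbB2* arrays. Its scanner column was therefore left out, and the replicate was followed through its deposited column alone, which leaves 4 WT and 6 ErbB2* arrays for the tests. A probe counts as above background, or detected, on an array at a deposited detection p under 0.05. This held for 30.9% to 34.3% of the 48803 probes on these 10 arrays. The number of arrays limits the precision. Over all genes the median SD between arrays was 0.161 log2 units in WT and 0.218 in ErbB2*.

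ERBB2 is a receptor tyrosine kinase without a ligand of its own that pairs with EGFR, ERBB3 or ERBB4 and signals through the RAS to ERK cascade and through PI3K and AKT. ERK output is read in feedback inhibitors such as the dual-specificity phosphatases and Sprouty proteins, and in the AP-1 transcription factors FOS and JUN, while AKT holds the FOXO factors out of the nucleus. In 3D gels MCF10A cells are known for forming polarised, growth-arrested acini held by cadherin junctions, desmosomes and a basement membrane, and activated ERBB2 is known for disturbing this architecture.

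All values below are log2 intensities after background correction and quantile normalisation, and a change is the ErbB2* mean minus the WT mean. A gene passed the test at an adjusted p below 0.05, by limma with Benjamini-Hochberg adjustment over all genes tested. Of 10914 genes 3037 passed (27.8%), with 1498 higher in ErbB2* (13.7%) and 1539 lower (14.1%). Each 3D count of list members below is to be read against these 13.7% and 14.1%. The change was at least 2-fold for 644 genes (5.9%), of which 369 were higher and 275 lower. With median scaling in place of quantile normalisation 60.3% of the calls were higher, against 49.3% here. The arrays of both groups did not overlap for 2514 genes (23%), and the median change of all genes was -0.01. A principal component analysis of these arrays placed 58.3% of the variance on its first axis, with WT arrays at -35.2 to -33.1 and ErbB2* arrays at 19.8 to 24.2.

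The 12 genes that rose most, and the 12 that fell most, were picked among genes past the test whose groups did not overlap. Those that rose included a secretory granule proteoglycan, cytokines and chemokines, lipid-binding and lipid droplet proteins, and MHC class II chains. SRGN, the serglycin core protein of secretory granules, read 6.44, 5.91, 6.20 and 6.36 in WT replicates 1 to 4 and between 11.78 and 12.17 with a median of 11.97 in ErbB2*. Every ErbB2* array lay far above every WT array, and the change of 5.77 ± 0.097 (SE, adjusted p = 3.15e-22) was 54.4-fold, the highest of all genes whose groups did not overlap. The gene with the next highest change, FABP4, a fatty acid carrier of adipocytes and macrophages, read 4.82, 5.07, 5.87 and 4.88 in WT, above background on 1 of 4 arrays, and between 9.99 and 10.83 with a median of 10.43 in ErbB2*. The third, IL6, was below background on every WT array and read between 9.50 and 10.15 with a median of 9.75 in ErbB2*, which puts it at least 23.4-fold higher. C10orf90, 3.97 higher in the same order of size, was above background on 2 of 4 WT arrays and on all ErbB2* arrays.

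The 12 genes that fell most included genes of squamous epithelium and of cell adhesion. KRT15, a basal keratin of stratified epithelia, read 9.82, 10.01, 9.86 and 9.85 in WT and between 5.69 and 6.62 with a median of 5.80 in ErbB2*. Its arrays were far apart, and it fell by 3.91 ± 0.21 (adjusted p = 7.69e-13), or 15-fold. LAD1, the anchoring filament protein ladinin, read 12.59, 12.58, 12.61 and 12.63 in WT and between 8.84 and 9.15 with a median of 8.90 in ErbB2*, a change of -3.64 from the highest WT level among the 12 genes that fell most. The Notch-family ligand homologue DLK2 fell by 3.65, the collagen prolyl hydroxylase P3H2 fell by 3.61, SRGAP3 fell by 3.56 and the epithelial cadherin CDH1 fell by 3.30. For SRGAP3 the other 2 probes changed by between -1.75 and 0.07, so its probes disagree. INAVA, a stabiliser of epithelial junctions, fell by 3.29, AMTN fell by 2.99, the membrane-bending protein MTSS1 fell by 2.96, the mitochondrial creatine kinase CKMT1B fell by 2.90, the glucuronosyltransferase UGT1A6 fell by 2.87 and the keratinocyte lipid transporter ABCA12 fell by 2.82. In ErbB2* AMTN was above background on 1 of 6 arrays, UGT1A6 on 3 and ABCA12 on 5.

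**Figure D1:**
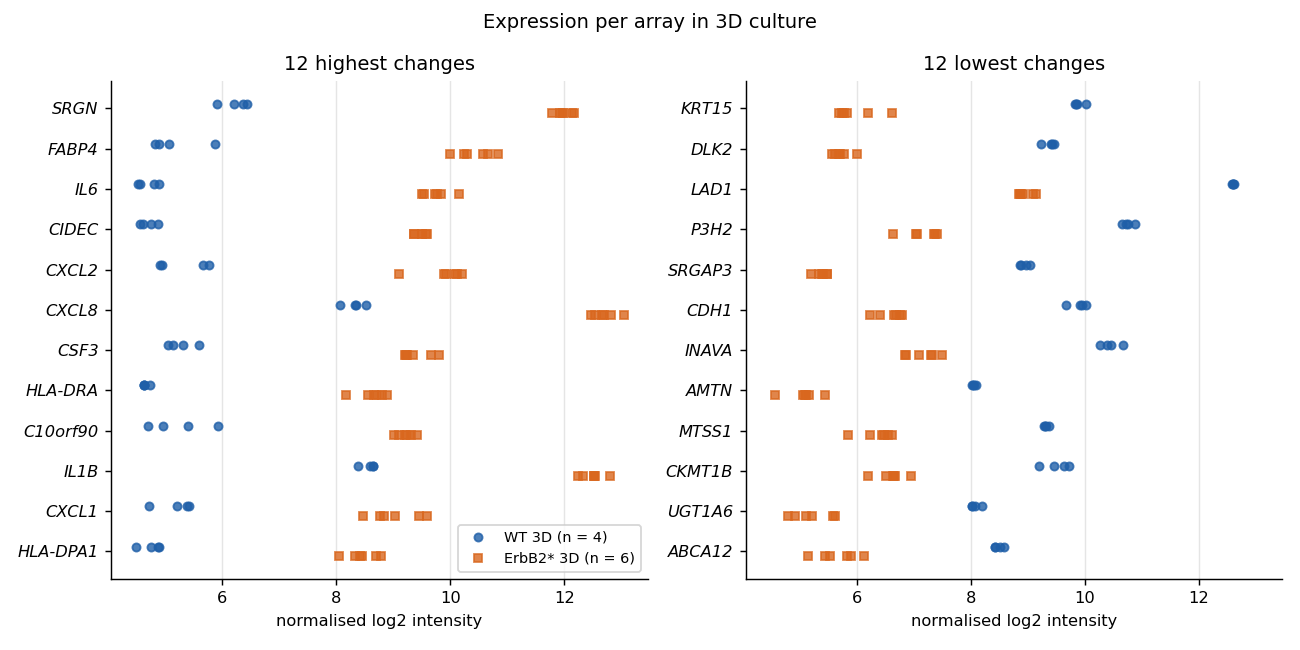
Normalised log2 intensity of the 12 genes with the highest and the 12 with the lowest change in 3D, with 1 blue circle per WT array (n = 4) and 1 orange square per ErbB2* array (n = 6). Only genes past the test whose groups did not overlap could be picked, so the 2 groups are separate in every gene shown by that choice. SRGN moves from 5.91 to 6.44 in WT up to 11.78 to 12.17 in ErbB2*.

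Near-identical genes can share signal on arrays, which was not examined for the probes of CXCL1 and CXCL2, CKMT1B, UGT1A6, SAA1, SERPINB3 and SERPINB4 or the HLA genes.

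The receptors themselves did not rise. ERBB2 read 8.47, 8.28, 8.78 and 8.20 in WT and 8.07, 8.43, 8.11, 7.83, 8.31 and 7.79 in ErbB2* replicates 1 to 6. The groups overlapped, and ERBB2 fell by 0.34 ± 0.13 (adjusted p = 0.0487), and the call was lost with only the 3D arrays in the fit (adjusted p = 0.118) and without 1 of several arrays, of which WT replicate 3 gave the highest adjusted p (0.232). The labels do not say whether its single passing probe reads the introduced sequence, and the value therefore checks no label. EGFR read 9.93, 9.91, 9.67 and 9.85 in WT and between 8.01 and 8.40 with a median of 8.21 in ErbB2*, with no overlap, and fell by 1.62 ± 0.12 (adjusted p = 1.47e-10), or 3.07-fold, and its second probe by 1.48. ERBB3, the kinase-poor partner of ERBB2, fell by 0.64 (adjusted p = 0.00956) with overlapping arrays and was above background on 2 of 6 ErbB2* arrays, and did not pass without WT replicate 4 (adjusted p = 0.0537). ERBB4 differed by 0.09 (adjusted p = 0.766).

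Of 5 EGF-family ligands tested 3 rose (60%, against 13.7% of all genes) and none fell. Epiregulin, EREG, which binds EGFR and ERBB4, read 5.20, 5.41, 5.33 and 6.01 in WT and between 6.22 and 7.48 with a median of 7.23 in ErbB2*, above every WT array, and rose by 1.60 ± 0.21 (adjusted p = 2.09e-06). TGFA rose by 0.76 and HBEGF by 0.74, and both lay above every WT array. In 2D these last genes fell, with changes of -0.57 and -0.65, and the differences of 1.33 and 1.40 passed their tests (adjusted p = 1.53e-06 and 3.48e-08).

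Most genes of ERK output rose. Of 16 tested 11 rose (68.8%) and 1 fell (6.25%), against 13.7% and 14.1% of all genes. The median change was 1.03 against -0.01 over all genes. For 11 members the ErbB2* arrays lay above the WT arrays, as they did for 1253 of all 10914 genes. The early response gene IER3 read 9.61, 9.41, 9.62 and 9.85 in WT and between 12.79 and 13.22 with a median of 12.91 in ErbB2*, a rise of 3.33 ± 0.10 (adjusted p = 2.16e-17). DUSP6, the phosphatase that inactivates ERK in the cytoplasm, read 7.71, 8.03, 7.65 and 7.45 in WT and between 9.16 and 9.90 with a median of 9.81 in ErbB2*, a rise of 1.97. The groups of both genes were well separated, and the nuclear phosphatases moved alike, DUSP4 by 1.19 and DUSP5 by 1.12. SPRY4, a Sprouty inhibitor of the cascade, rose by 1.79, the ephrin receptor EPHA2 by 1.71, PHLDA1 by 1.66 and the G1 cyclin CCND1 by 0.94. SPRY1, a second Sprouty protein, was the exception and fell by 0.99 (adjusted p = 0.00166).

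Of 15 AP-1 and early transcription factors 6 rose (40%) and 4 fell (26.7%), against 13.7% and 14.1% of all genes. FOS read 8.36, 8.13, 8.49 and 8.27 in WT and between 9.07 and 10.70 with a median of 10.30 in ErbB2*, a rise of 1.81 ± 0.20. JUN, its dimer partner, rose by 1.40 and FOSL1, a FOS-family protein stabilised by ERK, by 1.36. JUND, a JUN protein linked to quiescence, fell by 0.53 (adjusted p = 0.0187), but not with the replicate number as a block (adjusted p = 0.0598). The number of members that fell was 1 under median scaling and 0 with that block.

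Inflammatory cytokines were among the highest changes. NF-kB factors, released when their inhibitors are degraded, drive such genes through short sites near the start of transcription. The sequences below, from the RefSeq promoter table on GRCh38.p14, show where letters of such a site stand in 6 genes of this group that rose. These genes were picked for holding a match, and genes that rose without one are not shown. The motif was searched on both strands as GGGNNTTTCC, GGGNNTTCCC or GGAATTTCC, the last of which lies within GGGAATTTCC. Capitals mark the match, and each line reads 5′ to 3′ in the gene's direction.
IL6: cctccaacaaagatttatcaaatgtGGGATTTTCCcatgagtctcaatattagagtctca
CXCL2: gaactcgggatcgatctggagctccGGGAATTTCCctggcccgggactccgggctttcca
CXCL8: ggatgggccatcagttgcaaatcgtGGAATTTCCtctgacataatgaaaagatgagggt
CXCL1: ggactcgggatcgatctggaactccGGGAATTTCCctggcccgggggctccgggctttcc
TNFAIP3: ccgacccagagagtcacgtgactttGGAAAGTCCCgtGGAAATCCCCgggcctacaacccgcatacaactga
CCL20: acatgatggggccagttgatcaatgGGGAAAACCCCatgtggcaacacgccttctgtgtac
Each line is the match with up to 25 bases on either side, taken from the 300 bases of the promoter. The IL6 stretch lies at chr7:22727102-22727161 on the plus strand, with the motif starting 73 bases before the RefSeq start. The CXCL2 stretch lies at chr4:74099239-74099298 on the minus strand, 78 bases before the start. CXCL8 and CXCL1 lie on the plus strand at chr4:73740453-73740511 and chr4:73869289-73869348, with the motif 91 and 79 bases before the start. TNFAIP3 lies at chr6:137867167-137867238 and CCL20 at chr2:227813737-227813797, both on the plus strand, with matches 67 and 55 bases before the start in the first and 80 in the second. Over all 27305 promoters of 300 bases 4.17% held the motif, and 4.98% of the 8947 with a tested gene. Among list members of the NF-kB, chemokine, IL1, IL6-type and acute-phase lists that rose and had a promoter entry it was 11 of 22 (50%). Among all tested members of these lists with an entry it was 15 of 38 (39.5%). Since these lists hold known NF-kB targets, both shares describe them and are no sign of the factor's binding here. CSF3, RELB, CCL2, IL15, SAA1, SAA2, C3, C1S, PI3 and DEFB1 rose and had no entry.

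Of 9 chemokines tested 5 rose (55.6%) and 1 fell (11.1%), against 13.7% and 14.1% of all genes. The neutrophil chemokine CXCL8 read 8.34, 8.33, 8.06 and 8.51 in WT replicates 1 to 4 and between 12.47 and 13.04 with a median of 12.68 in ErbB2*. No array came near the other group, and the rise was 4.39 ± 0.13 (adjusted p = 2.16e-17), or 21-fold, with 4.62 for its second probe. In the deposited table WT 3D replicate 5 read 9.51 for CXCL8, above the 8.54 to 8.80 of WT replicates 1 to 4. CXCL2, another ligand of the receptor CXCR2, read 5.77, 4.91, 4.95 and 5.67 in WT, above background on 2 of 4 arrays, and between 9.10 and 10.21 with a mean of 9.88 ± 0.40 (SD, n = 6) in ErbB2*, a rise of 4.56. CXCL1 read 4.72, 5.38, 5.20 and 5.41 in WT, also above background on 2 of 4 arrays, and between 8.47 and 9.60 with a median of 8.94 in ErbB2*, a rise of 3.85. All ErbB2* arrays lay above all WT arrays in these 3 genes. CCL20, which attracts dendritic cells and some lymphocytes, rose by 1.47 from a WT level of 9.49 ± 0.11 (SD, n = 4). CCL2, a monocyte chemokine, was below background on all WT arrays and above it on 5 of 6 ErbB2* arrays, at least 1.62-fold higher. CXCL16 fell by 0.76 (adjusted p = 0.00152), with -0.10 for its second probe.

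The cytokines IL1A and IL1B rose and their natural antagonist fell. IL1B read 8.64, 8.38, 8.64 and 8.59 in WT and between 12.24 and 12.80 with a median of 12.53 in ErbB2*, a rise of 3.93 ± 0.12 (adjusted p = 2.16e-17), and no arrays overlapped. IL1A, already high in WT at 10.49 ± 0.02 (SD, n = 4), rose by 1.46, and the receptor IL1R1 rose by 0.88. IL1RN, the secreted receptor antagonist, lay below background throughout ErbB2*, a drop of at least 1.24-fold. In all, 5 of 8 tested members of this family and its receptors rose (62.5%) and 1 fell (12.5%), against 13.7% and 14.1% of all genes. The cytokine IL18 did not pass.

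Among IL6-type cytokines, colony-stimulating factors and their receptors 6 of 9 rose (66.7%, against 13.7% of all genes) and none fell. IL6, the first gene of this group, read 4.80, 4.89, 4.55 and 4.52 in WT, below background throughout, and its change of 5.06 is no bound. CSF3, the granulocyte colony-stimulating factor, read 5.05, 5.13, 5.31 and 5.60 in WT, above background on 2 of 4 arrays, and between 9.21 and 9.80 with a median of 9.29 in ErbB2*. It rose by 4.14 ± 0.19 (adjusted p = 6.55e-14), with 3.08 for its second probe. IL6ST, the shared signalling receptor gp130, rose by 0.71, while its other 2 probes changed by between -0.24 and 0.14.

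In the NF-kB pathway itself 7 of 12 genes rose (58.3%) and 2 fell (16.7%), or 1 under median scaling. Of all genes 13.7% were higher and 14.1% lower. The ubiquitin-editing inhibitor TNFAIP3, also called A20, read 9.12, 8.76, 8.50 and 8.94 in WT and between 10.63 and 11.32 with a median of 10.99 in ErbB2*, a rise of 2.16 ± 0.18. The subunit genes split. NFKB2, of the non-canonical branch, rose by 1.04, while NFKB1 fell by 0.35 and REL fell by 0.72, the last not past the test without WT replicate 2 (adjusted p = 0.0684) and above background on 2 of 6 ErbB2* arrays. NFKBIA, the inhibitor IkB-alpha, rose by 0.36.

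Of 16 acute-phase and defence proteins 9 rose (56.2%) and 2 fell (12.5%), or 1 under median scaling. Of all genes 13.7% were higher and 14.1% lower. TNFAIP6, a hyaluronan-binding protein induced by TNF and IL1, read 5.11, 4.98, 4.78 and 4.89 in WT, where its probe was below background throughout and a second probe was above it on 1 array, and between 8.30 and 9.01 with a median of 8.51 in ErbB2*, at least 10.4-fold higher. The complement protease C1S and the defensin DEFB1 were also below background on every WT array, at least 5.79-fold and 6-fold higher in ErbB2*, with a change of 0.39 for the second C1S probe. Complement factor CFB rose by 2.49 and the elastase inhibitor PI3 by 2.18. SERPINA1, the liver-type inhibitor of elastase, fell by 0.59. SAA1, which rose by 1.01 in 3D, had risen by 2.60 in 2D, and the difference of -1.60 passed its test (adjusted p = 9.63e-08).

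S100 proteins, small calcium-binding proteins, moved both ways, with 5 of 12 higher (41.7%) and 2 lower (16.7%), against 13.7% and 14.1% of all genes. S100A4, a motility-linked member, read 11.01, 11.09, 10.97 and 10.91 in WT and between 13.95 and 14.10 with a median of 14.06 in ErbB2* and rose by 3.04 ± 0.085 (adjusted p = 7.41e-18). S100A14, an epithelial member, fell by 2.80 and S100A2 fell by 1.50, each with all ErbB2* arrays below all WT arrays.

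Interferon-stimulated genes, many of which carry the interferon-stimulated response element, changed in 1 direction. Of 34 tested 25 rose (73.5%) and none fell, against 13.7% and 14.1% of all genes. The median was 0.89, or 0.85 with genes below background at their bound. IFI27 read 5.14, 4.94, 5.32 and 5.31 in WT, above background on 2 of 4 arrays, and between 8.29 and 8.87 with a median of 8.67 in ErbB2*, a rise of 3.44 ± 0.14. IFIT3, which binds antiviral signalling proteins, rose by 2.00, its other 2 probes changing by between 0.14 and 1.47, and IFI44 rose by 1.90. OASL was below background on all WT arrays and at least 2.17-fold higher in ErbB2*. Promoters of 4 members that rose, picked for holding a match, show the element, searched as TTTCNNTTTC on both strands, with matches in capitals.
IFI27: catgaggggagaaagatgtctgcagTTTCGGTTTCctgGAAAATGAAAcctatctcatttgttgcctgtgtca
IFIT3: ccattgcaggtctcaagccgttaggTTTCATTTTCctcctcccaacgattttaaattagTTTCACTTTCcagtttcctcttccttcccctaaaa
IFI44: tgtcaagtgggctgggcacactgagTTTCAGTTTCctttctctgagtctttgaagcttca
HERC5: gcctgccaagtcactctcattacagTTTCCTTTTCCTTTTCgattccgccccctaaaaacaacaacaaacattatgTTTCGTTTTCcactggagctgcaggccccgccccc
These lie on the plus strand of GRCh38.p14, IFI27 at chr14:94110603-94110675, IFIT3 at chr10:89327816-89327909, IFI44 at chr1:78649746-78649805 and HERC5 at chr4:88456969-88457079. Of all promoters 3.65% held the motif and of promoters with a tested gene 2.96%, against 14 of 19 (73.7%) among the list members that rose and had an entry. Among all tested members with an entry, whether they rose or not, it was 20 of 28 (71.4%), in a list of known targets. HERC5, the ligase that attaches ISG15 to proteins, rose by 1.35 ± 0.16.

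The factors above these genes moved both ways, with 3 of 10 IRF and STAT genes higher, 3 lower (1 under median scaling) and a median of -0.01. Each 3 of 10 is 30%, against 13.7% of all genes higher and 14.1% lower. IRF1 read 7.42, 7.11, 7.09 and 7.09 in WT and 9.20, 10.65, 9.96, 10.15, 10.99 and 9.54 in ErbB2* replicates 1 to 6, so the ErbB2* arrays spread widely but stayed above WT, and it rose by 2.91 ± 0.40 (adjusted p = 4.46e-06). IRF9, the DNA-binding part of the interferon response complex, rose by 1.75 and STAT4 by 1.40. STAT5A, a STAT of prolactin and cytokine receptors, fell by 1.27 and was above background on 1 of 6 ErbB2* arrays.

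Antigen presentation genes also rose. Of 18 class I genes 13 rose (72.2%, against 13.7% of all genes) and none fell. The heavy chain HLA-B rose by 2.09 and the immunoproteasome subunit PSMB9 by 2.29, the latter from 1 of 4 WT arrays above background. HLA-F rose by 1.59 and the peptide transporter TAP1 by 1.21. In the class II list 6 of 8 rose (75%) and 1 fell (12.5%), against 13.7% and 14.1% of all genes. HLA-DRA read 4.63, 4.63, 4.74 and 4.63 in WT, below background throughout, and between 8.17 and 8.89 with a median of 8.69 in ErbB2*, at least 10.8-fold higher. HLA-DPA1 was at least 9.49-fold and the peptide-loading chain HLA-DMB at least 4.05-fold higher, also from below background. The other loading chain, HLA-DMA, rose by 2.24, and CD74, the invariant chain, by 2.24, each from 1 of 4 WT arrays above background. RFXAP, a part of the complex that binds class II promoters, fell by 0.34 (adjusted p = 0.0364). It did not pass without WT replicate 3 or 4 (adjusted p = 0.0779 and 0.182) or without ErbB2* replicate 2, 3 or 5 (adjusted p = 0.0504, 0.0864 and 0.0558).

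**Figure D2:**
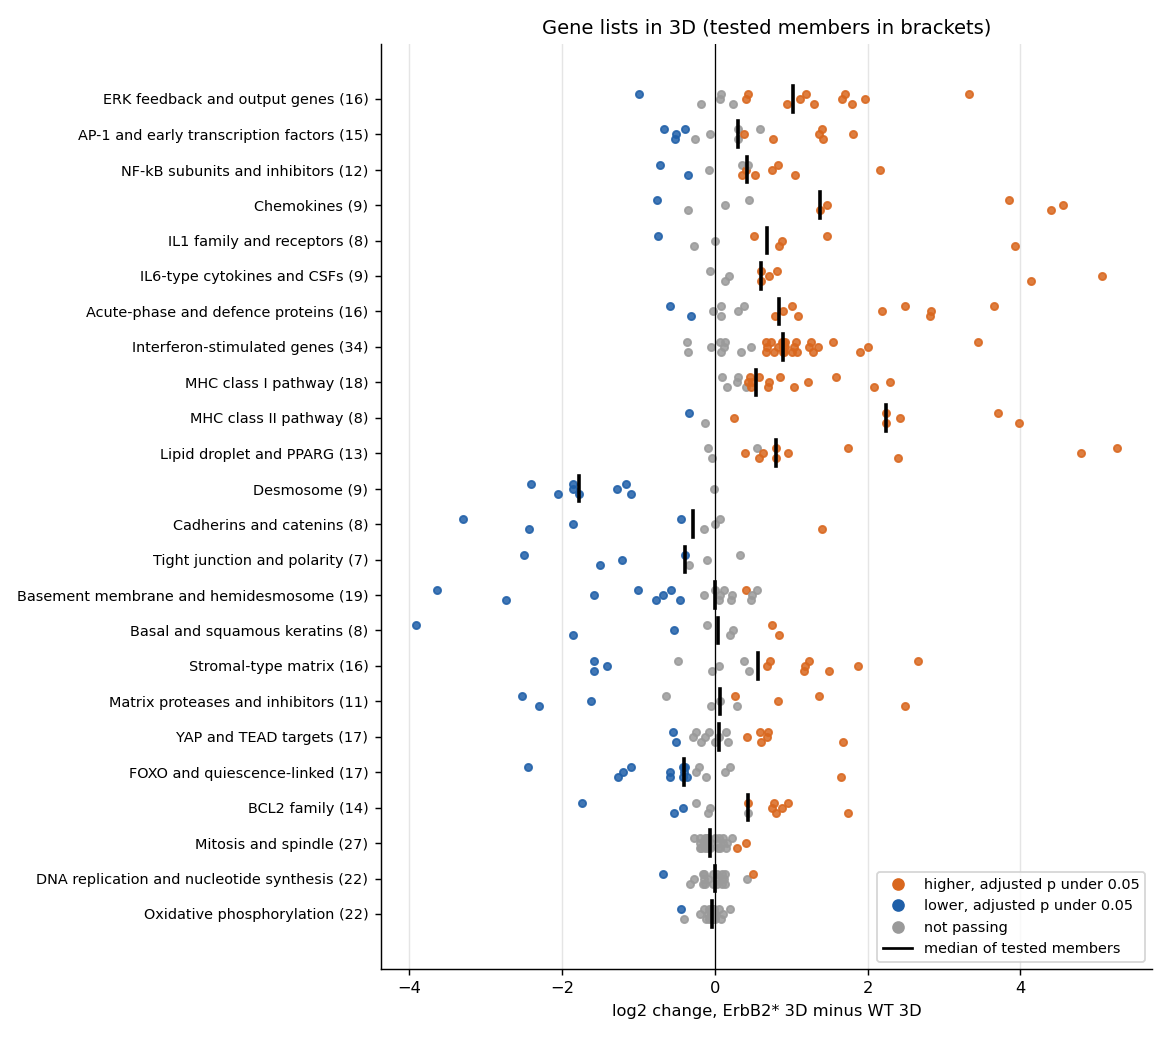
Log2 change in 3D (ErbB2* mean minus WT mean) of each tested member of 24 gene lists, 1 point per gene, orange where higher and blue where lower at an adjusted p under 0.05 and grey where the test was not passed, with the median as a black bar. Inflammatory, interferon and MHC lists lie mostly to the right of 0, desmosome genes lie to the left with a median of -1.78, and cell division and respiration genes stay near 0.

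Lipid droplet and PPARG-linked genes rose. Of 13 tested 10 rose (76.9%, against 13.7% of all genes) and none fell, with a median of 0.80. PPARG, the nuclear receptor that drives fat cell differentiation, read 7.82, 7.72, 7.94 and 7.60 in WT and between 9.94 and 10.38 with a median of 10.18 in ErbB2*, a rise of 2.39 ± 0.11 (adjusted p = 6.55e-14). CIDEC, a lipid droplet fusion protein, was below background on all WT arrays by its brightest probe, which read between 9.36 and 9.59 with a median of 9.51 in ErbB2* and was at least 19.4-fold higher. A second CIDEC probe, above background on 2 of 4 WT arrays, rose by 1.40. CD36, a fatty acid receptor, was at least 2.99-fold higher from below background. Of the adipocyte markers ADIPOQ, PLIN1 and CIDEA were above background on 0 of the 10 arrays, while LEP, the hormone leptin, rose by 0.80.

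Many cell adhesion genes fell. Of 9 desmosome genes tested 8 fell (88.9%, against 14.1% of all genes) and none rose, with a median of -1.78. For 8 members the ErbB2* arrays lay below the WT arrays, as they did for 1261 of all 10914 genes. Desmoplakin, DSP, which ties desmosomes to keratin filaments, read 11.55, 11.29, 11.43 and 11.18 in WT and between 9.20 and 9.84 with a median of 9.47 in ErbB2*, and fell by 1.86 ± 0.17 (adjusted p = 1.26e-08). The desmosomal cadherins DSC3 and DSG3 changed by -2.40 and -2.05, both past the test, with -0.67 for the second DSC3 probe, plakophilin PKP2 fell by 1.78 and plakoglobin, JUP, fell by 1.86. DSG2, a desmosomal cadherin of simple epithelia as well, was the exception, at 9.20 ± 0.06 in WT (SD, n = 4) and 9.19 ± 0.18 in ErbB2* (SD, n = 6, adjusted p = 0.988).

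Cadherins changed in opposite directions. CDH1, the E-cadherin of adherens junctions, read 10.03, 9.92, 9.95 and 9.67 in WT and between 6.23 and 6.79 with a median of 6.67 in ErbB2*, and fell by 3.30 ± 0.12 (adjusted p = 8.08e-16), or 9.87-fold. P-cadherin, CDH3, read 11.36, 11.35, 11.29 and 11.16 in WT and between 8.58 and 9.01 with a median of 8.90 in ErbB2*, and fell by 2.44. N-cadherin, CDH2, a cadherin of neural and mesenchymal cells, read 8.34, 8.25, 7.97 and 8.19 in WT and between 9.25 and 9.94 with a median of 9.57 in ErbB2*, a rise of 1.40 ± 0.10 (adjusted p = 2e-10). All 3 were separate between groups. Among 7 genes of tight junctions and polarity there were 4 that fell (57.1%, against 14.1% of all genes) and 0 that rose. The apical polarity protein CRB3 changed by -2.50 and the claudin CLDN7 by -1.50.

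Among genes linked to epithelial or mesenchymal identity, OVOL2, ESRP1 and ST14 fell, while ZEB2, SNAI2 and VIM rose. OVOL2, a repressor of mesenchymal genes, read 8.31, 8.17, 8.38 and 8.38 in WT and between 6.05 and 6.20 with a median of 6.16 in ErbB2*, and fell by 2.16 ± 0.13 (adjusted p = 9.51e-12). The splicing factor ESRP1 fell by 1.26, to 1 of 6 ErbB2* arrays above background, and the membrane protease ST14, matriptase, fell by 1.41. ZEB2, a repressor of E-cadherin, rose by 1.18 ± 0.18 (adjusted p = 2.01e-05). SNAI2 and the intermediate filament VIM rose by 0.46 and 0.54. Over the whole list 4 of 12 rose (33.3%) and 5 fell (41.7%), or 3 under median scaling. Of all genes 13.7% were higher and 14.1% lower. EPCAM, an epithelial adhesion molecule, fell by 0.40 by its brightest probe (adjusted p = 0.00332) with overlapping arrays, but its second probe changed by 0.19 and the mean of both by -0.10 (adjusted p = 0.551).

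Keratins did not move together. Beside KRT15, the basal keratin KRT14 read 11.14, 11.19, 11.26 and 11.01 in WT and between 8.87 and 9.74 with a median of 9.32 in ErbB2*, and fell by 1.86, and its partner KRT5 fell by 0.54. KRT16, a keratin of activated skin, rose by 0.75 by its brightest probe and changed by -0.62 by its second, and the luminal keratin KRT8 rose by 1.34 ± 0.13. KRT8's partner KRT18 differed by 0.02 (adjusted p = 0.949), with -0.63 for its second probe.

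Of 19 basement membrane and hemidesmosome genes 8 fell (42.1%) and 1 rose (5.26%), against 14.1% and 13.7% of all genes. COL7A1, the anchoring fibril collagen, read 10.49, 10.01, 10.30 and 10.14 in WT and between 8.42 and 8.91 with a median of 8.67 in ErbB2*, and fell by 1.58 ± 0.14. DST, which holds the hemidesmosomal plakin BP230 among its isoforms, fell by 2.73, but its other 4 probes changed by between -1.96 and 0.42. The hemidesmosomal integrin pair fell less, ITGB4 fell by 0.77 and ITGA6 fell by 0.57. COL4A1, a network collagen, rose by 0.41 (adjusted p = 0.00897), but did not pass without WT replicate 3 (adjusted p = 0.0583). Among other integrin subunits the leukocyte chain ITGB2 rose by 1.58, and ITGB6, the epithelial activator of TGF-beta, fell by 1.47, to 2 of 6 ErbB2* arrays above background.

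Matrix genes of the stromal kind rose more often than they fell, 8 (50%) against 3 (18.8%) of 16. Of all genes 13.7% were higher and 14.1% lower. TNC, tenascin-C, read 4.75, 4.76, 4.79 and 4.84 in WT by a probe below background on all 4 arrays and between 6.92 and 7.84 with a median of 7.45 in ErbB2*, at least 4.7-fold higher, and its second probe, above background on 3 WT arrays, rose by 1.38. The proteoglycan DCN, high in WT already, read 11.50, 11.46, 11.44 and 11.29 there and between 13.19 and 13.42 with a median of 13.28 in ErbB2*, a rise of 1.87 ± 0.073. Periostin, POSTN, read 7.92, 8.23, 8.19 and 8.42 in WT and between 9.24 and 10.18 with a median of 9.63 in ErbB2*, a rise of 1.49. Collagen VI chains rose, COL6A1 by 1.23 and COL6A3 by 1.18. The collagen cross-linking enzyme LOX fell by 1.58, FBLN1 fell by 1.58 and COL1A1 fell by 1.42.

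Among 11 matrix proteases and inhibitors tested 4 rose (36.4%) and 3 fell (27.3%), against 13.7% and 14.1% of all genes. SERPINE2, an inhibitor of urokinase and thrombin, read 10.90, 10.92, 10.94 and 10.98 in WT and between 13.32 and 13.63 with a median of 13.40 in ErbB2*, a rise of 2.49 ± 0.092 (adjusted p = 1.05e-15). Urokinase itself, PLAU, read 9.27, 9.27, 9.22 and 9.29 in WT and between 10.51 and 10.69 with a median of 10.63 in ErbB2*, a rise of 1.36 ± 0.10, and its receptor PLAUR rose by 0.82. The other plasminogen activator, PLAT, fell by 1.63, the metalloprotease inhibitor TIMP3 fell by 2.52 and the epidermal metalloprotease MMP28 fell by 2.30. Of 17 genes known as targets of YAP and TEAD 6 rose (35.3%) and 2 fell (11.8%), against 13.7% and 14.1% of all genes. The number of targets that fell was 0 under median scaling and 1 under 7 other settings. Tissue factor, F3, rose by 1.68 and the matricellular protein CCN2 by 0.68. CCN1, another such target, differed by -0.28 (adjusted p = 0.115).

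Several Notch and lineage genes changed. HES1, a Notch target and repressor, read 8.13, 7.96, 8.20 and 8.21 in WT and between 10.22 and 10.87 with a median of 10.33 in ErbB2*, a rise of 2.30 ± 0.14 (adjusted p = 1.16e-11). The ligand JAG2 fell by 1.25. Of 12 Notch genes 2 were higher (16.7%) and 4 lower (33.3%), against 13.7% and 14.1% of all genes. On the deposited values 1 was higher. Of 13 mammary lineage factors 6 rose (46.2%) and 2 fell (15.4%), or 1 under median scaling. SOX9, a progenitor factor of the mammary gland, rose by 2.09 from 3 of 4 WT arrays above background, and TBX3, needed for mammary development in mice, by 1.42. SOX15 fell by 1.04 (adjusted p = 3.04e-08), with all ErbB2* arrays below all WT arrays.

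FOXO-linked genes were lower. Of 17 tested 11 fell (64.7%) and 1 rose (5.88%), against 14.1% and 13.7% of all genes. The median was -0.41, and under median scaling 4 fell. TXNIP, an inhibitor of thioredoxin and of glucose uptake, read 10.44, 10.04, 10.23 and 10.32 in WT and between 7.63 and 8.03 with a median of 7.78 in ErbB2*, and fell by 2.45 ± 0.14 (adjusted p = 3.24e-12). CITED2 fell by 1.26 and YPEL3 fell by 1.20. TRIB2, a pseudokinase known to restrain FOXO3, rose by 1.65.

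Genes of cell survival and of cell death moved both ways. Of 14 BCL2-family genes 7 rose (50%) and 3 fell (21.4%), or 1 under median scaling. Of all genes 13.7% were higher and 14.1% lower. The anti-apoptotic BCL2L1 rose by 0.95 ± 0.15, and PMAIP1, the pro-apoptotic NOXA, by 1.75. BIK, another pro-apoptotic member, read 7.49, 7.54, 7.61 and 7.89 in WT and between 5.11 and 6.32 with a median of 5.98 in ErbB2*, and fell by 1.74. Of the p53 targets 7 of 14 were higher (50%) and 1 lower (7.14%, and 0 members under median scaling). They included the CDK inhibitor CDKN1A at 0.95, with 0.28 for its second probe.

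Division genes stood near their WT levels. Of 27 mitosis and spindle genes 2 rose (7.41%) and 0 fell, and of 22 replication and nucleotide synthesis genes 1 rose and 1 fell (4.55% each), against 13.7% of all genes higher and 14.1% lower. Under median scaling 0 of the first list rose and 0 of the second fell. MKI67 read 5.70 ± 0.24 (SD, n = 4) in WT and 5.86 ± 0.36 (SD, n = 6) in ErbB2* (adjusted p = 0.663). Oxidative phosphorylation gave 1 call of 22 genes, lower, and secretory pathway folding 0 of 13.

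Of 23 hypoxia and glycolysis genes 7 rose (30.4%) and 5 fell (21.7%), against 13.7% and 14.1% of all genes. The number that fell was 2 under median scaling and 3 with the replicate block or the mean over probes. ADM, the vasodilator adrenomedullin, read 7.95, 8.18, 8.05 and 8.11 in WT and between 10.47 and 11.19 with a median of 11.10 in ErbB2*, a rise of 2.93 ± 0.12 (adjusted p = 6.83e-15), and the mTORC1 inhibitor DDIT4 rose by 1.38. The carbonic anhydrase CA12 fell by 1.80. Among redox genes thioredoxin reductase TXNRD1 rose by 1.66 and heme oxygenase HMOX1 by 1.37, while the epithelial glutathione peroxidase GPX2 fell by 1.56, to 1 of 6 ErbB2* arrays above background. The leucine transporter subunit SLC7A5 fell by 1.67. Of 19 sterol and fatty acid synthesis genes 7 fell (36.8%) and 1 rose (5.26%), against 14.1% and 13.7% of all genes. Fatty acid synthase, FASN, changed by -0.68. Under median scaling 3 genes of this list fell and none rose.

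The same line difference was measured in 2D on other samples, 6 of each line, where 2542 genes passed the test (23.3%), 55% of them higher in ErbB2*, or 84.7% under median scaling. By number, 1398 of all 10914 genes were higher in 2D and 1144 lower. Of the 3D calls 1164 were also called in 2D, 38.3% of the 3D and 45.8% of the 2D calls, 889 of them in the same direction and 275 in the opposite one. The difference between the 3D and the 2D change, tested directly, passed for 2367 genes (21.7%), 1073 with a higher change in 3D (9.83%) and 1294 with a lower one (11.9%). Under median scaling the higher changes made up 27.1% of these calls, against 45.3% here. Of the 644 genes changed at least 2-fold in 3D 466 had a difference past the test.

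CXCL8, IL1B, CXCL1 and IL6 rose more in 3D than they changed in 2D. CXCL8 read 9.91 ± 0.18 (SD, n = 6) in WT and 10.01 ± 0.24 in ErbB2* in 2D, a change of 0.10 (adjusted p = 0.595), and the difference from 3D was 4.29 ± 0.18 (adjusted p = 2.71e-14). For IL1B the difference was 3.59 and for CXCL1 3.59. IL6 rose by 1.82 in 2D, and its difference of 3.24 rests on WT arrays below background in 3D and is no bound. SRGN read 10.26 ± 0.06 in WT in 2D against 6.23 ± 0.23 (SD, n = 4) in 3D and differed by 4.71 ± 0.13, the highest difference of all, followed by FABP4 with 4.41, which is no bound, since all 6 WT arrays in 2D were below background. ERK output changes were higher in 3D for 9 of 16 genes and lower for 1, with a difference of 3.55 for IER3, while 2D had 4 members higher and 4 lower. Over all genes the difference was higher in 3D for 9.83% and lower for 11.9%.

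Interferon-stimulated genes rose in 2D as well. There 27 of 34 were higher, and the difference was higher in 3D for 1 and lower for 8. Of all 10914 genes 1398 were higher in 2D, and the difference was higher in 3D for 9.83% and lower for 11.9%. HLA-DRA changed by 3.82 in 2D, which is not set against 3D, where all WT arrays were below background. CD74 had a larger fitted rise in 2D, of 4.12 (difference -1.88, adjusted p = 2.65e-05 by limma). Its probe was above background on only 1 WT array in 2D and 1 in 3D, so both changes and their difference rest on WT values mostly at background.

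Stromal matrix genes differed between the cultures. In 2D 3 of 16 rose and 9 fell, with a median of -0.83, and the difference was higher in 3D for 12 and lower for 3. Of all 10914 genes 1398 rose and 1144 fell in 2D, and the difference was higher in 3D for 9.83% and lower for 11.9%. POSTN fell in 2D, to 0 of 6 ErbB2* arrays above background, and rose in 3D, and its fitted difference of 3.50, among the 10 highest, rests on values at background in 2D and is no bound. COL6A3, above background on all arrays, also fell in 2D and rose in 3D, a difference of 3.15. PLAU and F3 also changed in opposite directions, by -1.79 and -1.51 in 2D and with differences of 3.15 and 3.19. No YAP target rose in 2D and 11 of 17 fell, and 8 differences were higher in 3D. The tetraspanin TSPAN5 and the metalloprotease ADAM19 rose in 3D and fell in 2D, with differences of 3.99 and 3.75. SCG5, a neuroendocrine chaperone, changed by -4.03 in 2D and by 0.34 in 3D (adjusted p = 0.0925).

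FOXO-linked genes ran the other way. In 2D 8 of 17 rose and 1 fell, and the difference was lower in 3D for 11. Of all 10914 genes 1398 rose and 1144 fell in 2D, and the difference was lower in 3D for 11.9%. TXNIP changed by 1.47 in 2D and fell in 3D, a difference of -3.92 ± 0.19 (adjusted p = 4.06e-13). Desmosome genes fell in 2D as well, 7 of 9, and fell further in 3D for 6. CDH1 changed by -1.05 in 2D, a difference of -2.25, and KRT15 by 0.29 (adjusted p = 0.291), a difference of -4.20.

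Several of the 10 lowest differences came from probes at background in 3D. The brightest probes of the secreted hepatokine FGL1, the squamous serpins SERPINB3 and SERPINB4 and the lysosomal protein LAMP3 were below background on all 10 arrays in 3D and on all 6 WT arrays in 2D, and rose in 2D, where all 6 ErbB2* arrays were above it. Their fitted differences of -4.81, -4.25, -4.13 and -3.70 rest on values at background and are no bounds. With the filter on low signals set on the 3D arrays another FGL1 probe stood for the gene, and its difference was 0.29 (adjusted p = 0.611). Haptoglobin, HP, rose by 3.78 in 2D and was above background on 2 of 6 ErbB2* arrays in 3D, and the IL33 receptor IL1RL1 rose by 4.55 in 2D and was at least 1.26-fold higher in 3D, where a second probe was above background on 1 WT array. MAOA, a monoamine oxidase, and SCNN1B, a sodium channel subunit, rose by 2.09 and 1.86 in 2D and fell in 3D, with changes of -1.16 and -1.69.

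**Figure D3:**
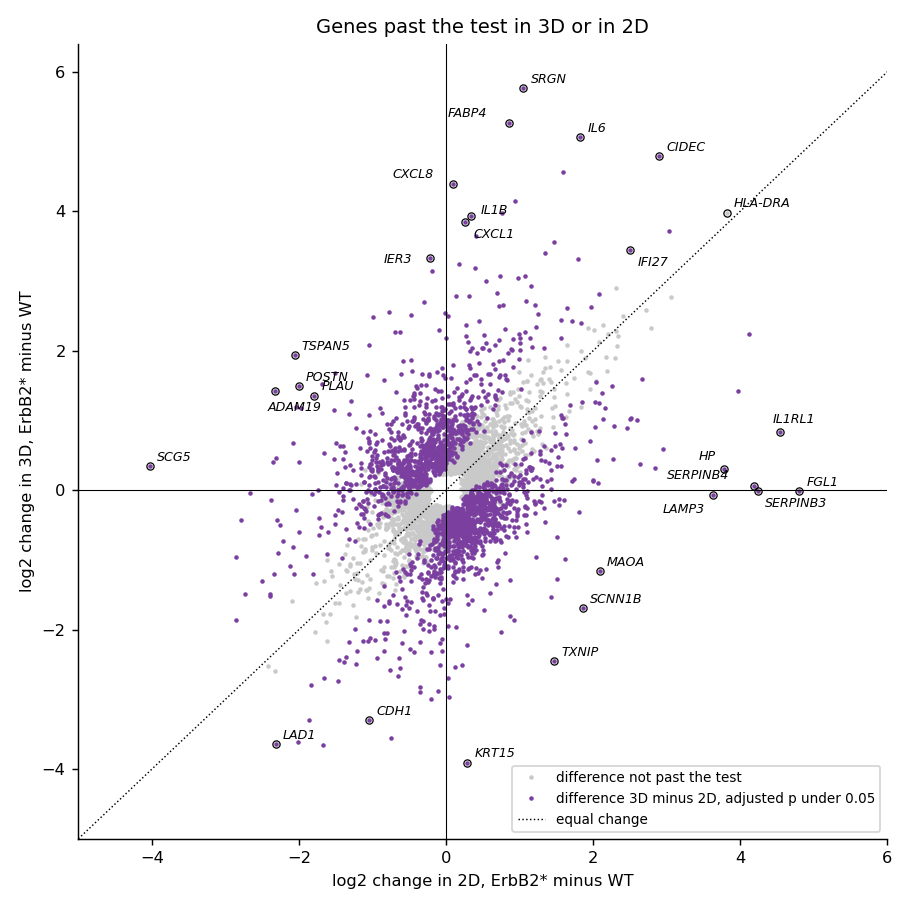
Log2 change of ErbB2* over WT in 3D (vertical) against 2D (horizontal) for genes past the test in either, purple where the difference passed its own test and grey where it did not, with the dotted line at equal change. CXCL8, IL1B, SRGN and FABP4 lie high near a 2D change of 0 to 1.05, KRT15 lies low at a 2D change of 0.29, and the brightest probes of FGL1 and SERPINB3 lie at 0 in 3D and above 4 in 2D.

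**Figure D4:**
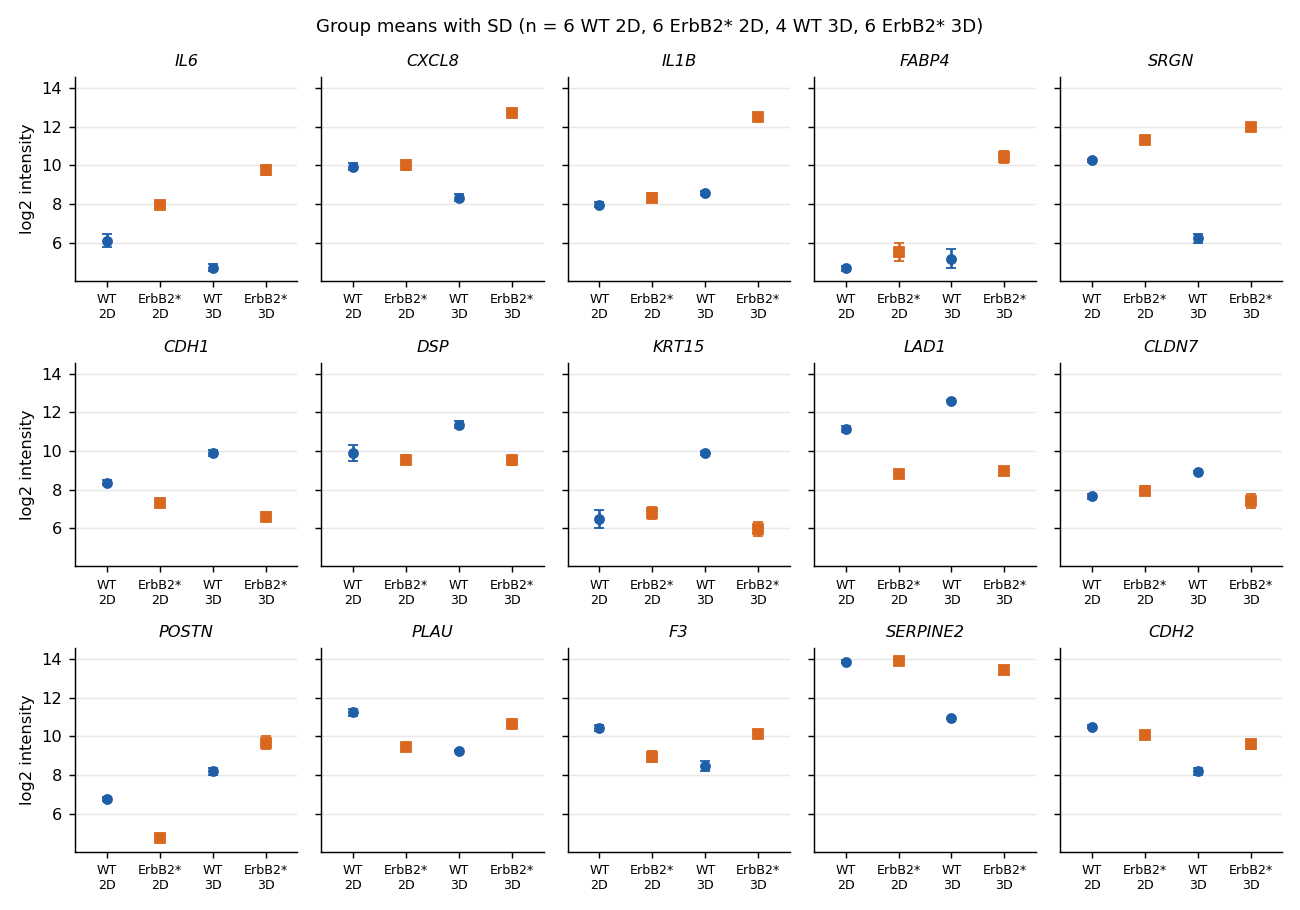
Mean log2 intensity with SD for 15 genes in WT (blue circles) and ErbB2* (orange squares) in 2D (n = 6 and 6) and 3D (n = 4 and 6). CXCL8 in WT stands at 9.91 in 2D and 8.31 in 3D while ErbB2* stands at 10.01 and 12.71, and KRT15 stands out in WT 3D alone, at 9.89.

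Markers of the labelled cell type and of others were read on the same 10 arrays. All 8 mammary epithelial and basal markers with a probe were above background on every array, with a summed linear level of 16200 to 18500 in WT and 11300 to 14700 in ErbB2*. In a fitted change 5 of 8 fell (62.5%, against 14.1% of all genes) and 1, KRT8, rose (12.5%, against 13.7%). The leukocyte-defining genes PTPRC, ITGAM, TYROBP and CD53 were above background on 0 of 10 arrays, while CD14, CD68 and CSF1R were above it on all 10. The 6 leukocyte markers that were tested summed to 2140 to 2630 in WT and 2350 to 2660 in ErbB2*, with CD14 and LAPTM5 higher by 1.25 and 1.30 and a change of -2.03 for CSF1R. The 6 tested fibroblast markers summed to 4960 to 5470 in WT and 25700 to 29000 in ErbB2*, to which S100A4 and DCN contributed most. PDGFRA, FAP, DCN and S100A4 were above background on all 10 arrays, and LUM on 1 of 4 WT and 6 of 6 ErbB2* arrays. COL3A1 was above it on no array and COL1A2 on 1 of 10. Endothelial VWF, CDH5, KDR and CLDN5 were above background on none, while PECAM1 was above it on all 10. The 3 tested endothelial markers summed to 95.9 to 145 in WT and 161 to 229 in ErbB2*, and 1 of them rose. The 4 tested adipocyte markers summed to 322 to 372 in WT and 3100 to 3680 in ErbB2*. The part of these markers in the matrix, lipid and cytokine changes was not tested. In bulk RNA fewer cells of a type and less RNA per cell cannot be told apart.

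WT 3D replicate 5, through its deposited column, lay nearer to the WT mean than to the ErbB2* mean for 614 of the 644 genes changed at least 2-fold (95.3%) and nearer to ErbB2* for 30. Fitted on the deposited values with this replicate, 3393 genes passed in 3D. On that scale, whose values start at 7.15, 188 of them reached 2-fold, and IL6 changed by 2.37 on it against 5.06 here.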

How the data were processed

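Gene expression was measured on 23 Illumina bead arrays with 48803 probes each. The scanner values are mean bead intensities with detection p-values, without background correction or normalisation, per the file headers. A second deposited table holds the authors' normalised values on a log2 scale from 7.15 to 15.25, with the method not given in the sources used here. It was used for WT 3D replicate 5 and as an alternative. Probes were named through the platform annotation, with 28098 probes naming 1 gene, 13 several and 20692 none, and 28059 matched a RefSeq Entrez entry.

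From the intensities, neqc in limma 3.58.1 (R 4.3.3) corrected the background with negative controls inferred from the detection p-values, added an offset of 16, normalised by quantiles and took log2. Probes with a detection p-value under 0.05 on at least 5 of 22 arrays were kept (17577), and the brightest passing probe stood for each of 10914 genes. Among genes named with a 3D change, another probe's change is given where its direction differed. Groups came from the sample titles. One limma model over the 4 groups gave the 3D change, the 2D change and their difference, two-sided, with Benjamini-Hochberg adjustment and a threshold of 0.05. A probe below background on every array of a group gives a bound, against the higher of its own value and the lowest detected signal on each array. The model fit was tested on simulated data, where 46 of 50 genes changed by 1 log2 unit in 3D were recovered among 10914. The simulation did not cover background correction, normalisation, the detection filter, the choice of probe or the bounds.

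The members and gene lists were chosen with earlier results of these data known. Genes named were drawn from the ERBB receptors, the 12 highest and 12 lowest changes without overlap, and the 10 highest and 10 lowest differences. Also drawn on were up to 5 called members of largest change per list and every member of lists of at most 8. List members that did not pass could be named as such, as MKI67, DSG2 and CCN1 were. The text leaves out some genes of that rule, such as EPHA1 among those called and BTC among those that did not pass. COL4A1, COL6A1, COL6A3, CXCL16, DUSP4, DUSP5, JUND, NFKB1, NFKBIA, PLAUR, SAA1, SERPINA1, SNAI2, SPRY1 and VIM lie outside that rule and were chosen after their values were seen. The same holds for C3, RELB and SAA2, named for a missing promoter entry. The files and labels used here give no scan date or chip, so batches were not examined.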

Additional observations from a re-analysis of the deposited data

Results flagged for a closer look

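Among the 167 genes named with a 3D change, 14 of 334 groups of arrays (4.19%) held 1 array far from the others of its group by Dixon's criterion, which chance gives in about 1 of 20 groups. In WT these were replicate 1 at 6.07 for CD74, 7.42 for IRF1 and 8.99 for SCG5, replicate 3 at 12.29 for CCND1 and 4.74 for HLA-DRA, and replicate 4 at 5.35 for ESRP1. In ErbB2* they were replicate 5 at 9.10 for CXCL2, 7.43 for DSG3, 11.49 for PI3 and 6.01 for TIMP3, replicate 6 at 10.47 for ADM and 7.44 for LAPTM5, replicate 1 at 9.62 for CD14 and replicate 3 at 6.58 for TRIB2.

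The line difference itself differed between 3D and 2D for 2367 genes by limma's test of the difference. All 24 differences given above with a size passed. The change in 3D was higher by 4.71 for SRGN, 4.41 for FABP4, 4.29 for CXCL8, 3.99 for TSPAN5, 3.75 for ADAM19, 3.59 for both CXCL1 and IL1B, 3.55 for IER3, 3.50 for POSTN, 3.24 for IL6, 3.19 for F3, 3.15 for both PLAU and COL6A3, 1.40 for HBEGF and 1.33 for TGFA. Those of FABP4, POSTN and IL6 rest on a group below background on every array and are no bounds. The difference was -4.81 for FGL1, -4.25 for SERPINB3, -4.20 for KRT15, -4.13 for SERPINB4, -3.92 for TXNIP, -3.70 for LAMP3, -2.25 for CDH1, -1.88 for CD74 and -1.60 for SAA1. That of CD74 rests on WT values mostly at background in both cultures. Those of FGL1, SERPINB3, SERPINB4 and LAMP3 rest on probes at background in all groups but ErbB2* in 2D, and another FGL1 probe, which passed a filter on the 3D arrays, gave 0.29 (adjusted p = 0.611).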

How the results depend on the processing

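The count of genes called in 3D lay between 2037 (median scaling) and 3393 (deposited values with WT replicate 5) over the 12 alternatives other than leaving out an array, and between 2543 and 3109 with each array left out in turn. Median scaling left 809 genes lower in 3D, and 522 differences higher in 3D. The number of 2-fold calls was 188 on the deposited values with WT replicate 5, 194 without it, 302 with no background correction and 366 with an offset of 50, scales on which low signals differ less. Including the scanner column of WT replicate 5 gave 2441 calls in 3D, of which 2117 were shared, and 1436 in 2D. The replicate numbers did not pair the samples (correlations of the pairs' deviations between -0.08 and 0.03), and with the number as a block 2736 genes were called in 3D, of which 2626 were shared. No named gene called in 3D reversed past the test. Below the test, RFXAP reversed to 0.21 with the scanner column of WT replicate 5. DSG2, at -0.01, gave 0.88 with that column, 0.071 and 0.0022 on the deposited values with and without it, 0.038 under median scaling, and -0.063 to 0.034 with an array left out. KRT18, at 0.02, gave -0.087 to 0.16 with an array left out, but passed the test lower, at -0.31, as the mean of its probes (adjusted p = 0.0339). The difference for FGL1 was 0.29 with the filter on the 3D arrays, where another probe stood for it. The causes were not tested. Under median scaling the calls of EPCAM, ERBB2, ERBB3, COL4A1, ITGA6, NFKB1, NFKBIA, RFXAP and SNAI2 did not pass. Signals at background limit the changes of low genes to bounds.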
